A study of Mus musculus with 31 samples.

Results

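The potassium channel genes were taken as every gene whose array name began with Kcn, went on with one or more letters and ended in digits, without Kcnj10 and Kcne2. The rule found 90 genes among 36161 named genes and transcripts on the array, and all 90 names stood in the RefSeq mouse gene table. Each gene was represented by the probe with the highest mean log2 intensity over the 31 arrays. The rule used names and brightness only, and no difference between mice. The brains came from female C57BL/6 mice aged 6 weeks that had been anaesthetised with xylazine and ketamine and injected through the tail vein. The 17 OA mice received 200 µl of oleic acid (1.2 µl/g body weight), a fatty acid that injures the lung and is used to model acute lung injury, and the 14 serum mice received 200 µl of physiological serum. OA brains were collected at 1, 1.5, 3, 4, 18 and 24 h, with 3 mice at each time except 2 at 18 h. Serum brains were collected at the same times, with 3 mice at 1 h and 1.5 h and 2 at each later time. All 31 mice were anaesthetised and injected, no uninjected brain was analysed here, and nothing in the labels says which brain regions were kept.

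Potassium channels let potassium leave a cell along its gradient, which holds the resting potential near rest and ends action potentials. Voltage-gated pore subunits open on depolarisation, calcium- and sodium-activated pores open on ion entry, inward rectifiers conduct best near rest and carry the current that some neurotransmitter receptors evoke, and 2-pore-domain channels carry the steady leak. Silent and auxiliary subunits make no pore of their own and change the gating, assembly or traffic of pores made by others. In brain these genes set excitability in neurons, and in astrocytes they help clear potassium from the space around firing cells.

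Values are log2 of the background-subtracted, scanner-processed intensity minus the array's own 75th percentile, so 0 is the 75th percentile of that array and 1 unit is a doubling. A probe's brightness depends on its sequence, so levels were compared between mice and never between genes. Of the 90 genes, 83 passed a filter, which kept a probe if some group of the 12 had it above background in all its brains, and 71 were above background on all 31 arrays. The 7 that did not pass were Kcne1, Kcng3, Kcnj1, Kcnk18, Kcnmb3, Kcnn1 and Kcnv2. Kcng3 was above background on 3 arrays, Kcnj1, Kcnk18 and Kcnn1 on 1 each, and Kcne1, Kcnmb3 and Kcnv2 on 0. By role, the tested genes were 8 of 8 Kv1 pore subunits, 9 of 9 Kv2, Kv3 and Kv4 pore subunits, 8 of 10 silent subunits, 8 of 8 ether-a-go-go genes, 5 of 5 KCNQ genes, 9 of 10 auxiliary subunits, 10 of 12 calcium- and sodium-activated genes, 13 of 14 inward rectifiers and 13 of 14 leak channels.

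Some arrays stood apart in ways that touch the results. The listed markers of neurons, astrocytes and oligodendrocytes that the array carries were above background in all 31 brains. Gabra6, a gene of cerebellar granule cells, read between -7.59 and -2.85 on 6 arrays (OA 1.5 h replicate 2, OA 4 h replicate 3, serum 1 h replicate 1, serum 1.5 h replicate 3, serum 4 h replicate 2 and serum 18 h replicate 1), against -1.60 to 2.32 on the other 25. Among those 25, OA 1.5 h replicate 1, OA 3 h replicates 1 and 3 and serum 3 h replicate 1 read between -1.60 and -0.84. The rest read between 0.50 and 2.32, and all stayed among the 25 below. Prl, a pituitary hormone gene, read between -3.07 and 7.91 on 6 arrays (OA 4 h replicates 2 and 3, OA 24 h replicates 1 and 3, serum 3 h replicate 2 and serum 24 h replicate 2) and at most -6.13 on the other 25. The arrays lay on 5 slides. All 1 h brains shared 1 slide and all 4 h brains another. The 2 OA and 2 serum brains at 18 h lay on different slides, and there the treatment and the slide cannot be told apart. At the other times treatment and slide were partly tied. At 1.5 h the treatments shared only a slide with 1 brain of each. At 3 h 1 OA brain lay off the slide of both serum brains, and at 24 h 1 serum brain lay off that of the OA brains. The share of spots above background ran from 54.3% to 76.3%, highest on OA 4 h replicate 1. Nothing in the labels links a replicate number to a shared litter or day, and the number of mice limits the precision of every value below. In a whole-tissue sample, fewer cells of a type and less RNA per cell cannot be told apart.

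No potassium channel gene differed between OA and serum mice at an adjusted p under 0.05, at any of the 6 times or in the mean over the 6 times (limma, 12 group means, Benjamini-Hochberg over 25204 genes). The count was 0 of 83 in each of these 7 comparisons. Over all genes, percent_called was 0 at 1, 1.5, 3, 18 and 24 h and for the mean, and 0.00397 at 4 h, where 1 gene passed. At an unadjusted p under 0.05 the channel genes gave 3 of 83 at 1 h (4.86% of all genes), 0 at 1.5 h (5.34%), 4 at 3 h (4.84%), 2 at 4 h (3.04%), 7 at 18 h (7.27%) and 5 at 24 h (6.58%). For the mean over 6 times it was 3 of 83, or 3.61%, beside 4.63% of all genes. These shares lie near those of all genes. Some groups did not overlap. At 1 h 2 channel genes lay wholly higher and 5 wholly lower in OA mice (4.09% and 5.81% of all genes did so), at 1.5 h 4 and 4 (4.22% and 6.59%), and at 3 h 5 and 7 (10% and 7.69%). At 4 h it was 7 higher and 3 lower (9.46% and 8.69%), at 18 h 17 and 22 (23% and 29.4%), and at 24 h 5 and 13 (12% and 16.9%), out of 83 each time.

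The mean over 6 times estimates the size of a difference common to all times. The estimates for the 83 genes ran from -0.26 to 0.44, with a median of -0.0037 beside -0.0064 over all genes. The 0.44 was that of Kcna10, whose probe passed the filter only through OA groups. The 95% confidence interval lay within a 1.5-fold change either way for 78 of the 83 genes, and within a 2-fold change for all 83. The 5 genes whose intervals reached past 1.5-fold were Kcna10, Kcnj2, Kcnk16, Kcnmb1 and Kcnn4, of which all but Kcnk16 had probes that were not above background on every array. At single times the intervals were wider, with a median half-width of 0.43 at 1 h and 0.53 at 18 h, and 61 to 75 of the 83 lay within a 2-fold change.

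**Figure D1:**
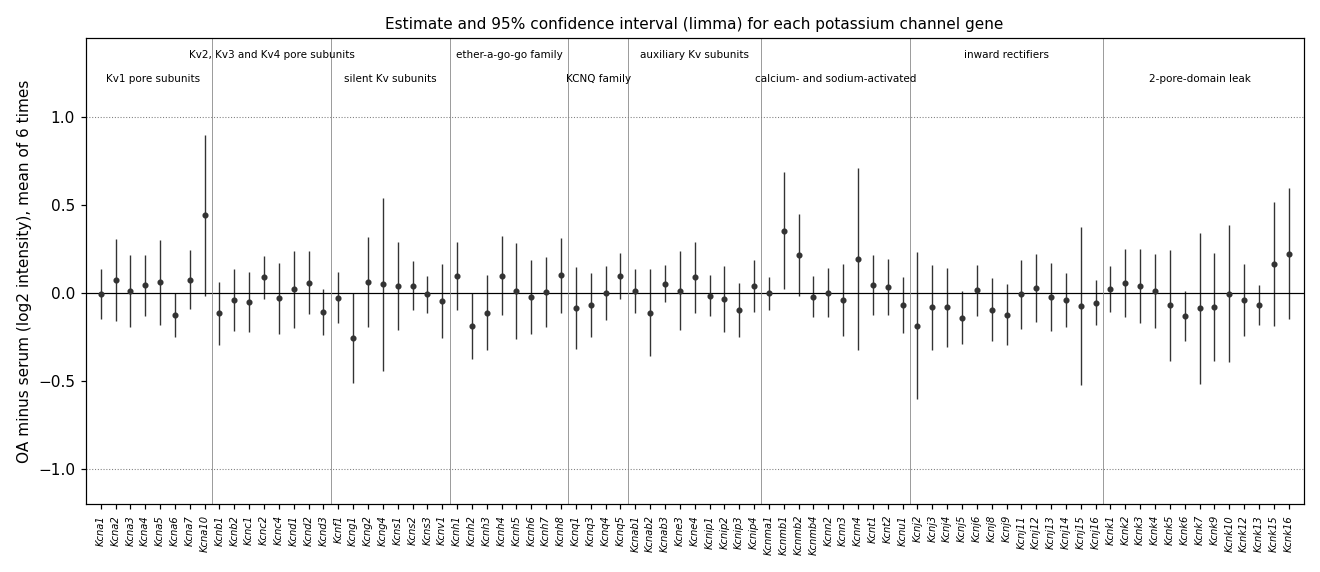
OA minus serum for 81 of the 83 potassium channel genes (x axis, grouped by role), as log2 intensity averaged over the 6 times (y axis). Points are limma estimates, bars their 95% confidence intervals and dotted lines a 2-fold change. All 81 intervals drawn stay between the dotted lines.

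Among voltage-gated pore subunits, Kcna6 had the smallest unadjusted p at 18 h. Kcna6, a Kv1 subunit of axonal channels, read 4.66 and 4.74 in OA brains at 18 h, against 5.25 and 5.08 in serum brains. The groups did not overlap, and the difference was -0.47 ± 0.16 (log2, SE) with an adjusted p of 0.67. Over the 6 times Kcna6 differed by -0.13 (95% interval -0.25 to -0.00097, adjusted p 1.00). A second Kcna6 probe (r = -0.50 with the first) differed the opposite way, by 0.32 at 18 h and 0.071 over the 6 times. Kcna7, another Kv1 subunit, read -0.63 and -0.61 in OA brains and -1.15 and -1.25 in serum brains at 18 h, a difference of 0.58 ± 0.22 with the same adjusted p. Kcnc1, a Kv3 subunit of fast-spiking neurons, read 2.81 and 2.84 in OA brains and 2.18 and 2.42 in serum brains at 18 h (0.52 ± 0.22, adjusted p 0.67), and its further probes differed by -0.063 and 0.17. With slide as a term in the fit, Kcna7 and Kcnc1 changed direction at 18 h, to -0.59 and -0.21.

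Kcna3, a Kv1 subunit best known from T cells and microglia, read -1.89, -2.31 and -2.45 in OA brains at 3 h, against -1.47 and -1.81 in serum brains. Every OA brain was lower than both serum brains, by -0.58 ± 0.24 on average (adjusted p 0.94). The OA brain at -2.45 lay on the slide of the 4 h brains, where the median of Kcna3 was -2.54, and not on that of the serum brains. At 1.5 h Kcna1, a Kv1 subunit of axons, read 3.39, 3.66 and 3.67 in OA brains and 3.88, 3.93 and 3.76 in serum brains (-0.28 ± 0.15, adjusted p 0.92). The groups did not overlap there and had only 1 slide in common. At 1 h the same gene differed by less, at 3.94, 3.93 and 3.88 in OA brains and 3.98, 4.10 and 4.07 in serum brains. Kcna10 read -3.35, -4.10 and -4.22 in OA brains at 4 h, all 3 above background, against -4.49 and -5.49 in serum brains, of which 1 was above background (1.1 ± 0.55, adjusted p 1.00). Across the 8 Kv1 genes 6 were higher in OA mice for the mean over times, and across the 9 Kv2, Kv3 and Kv4 genes 3 were higher, none past the test in either group.

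In the ether-a-go-go family, Kcnh2, whose channel repolarises heart cells and some neurons, read -0.48, -1.07 and -0.90 in OA brains at 24 h, against 0.17 and -0.70 in serum brains. The ranges overlapped, since 1 OA brain read above the lower serum brain. The difference was -0.55 ± 0.23 at 24 h (adjusted p 0.75) and -0.19 for the mean over times, with an interval of -0.38 to 0.0025. Kcnh6 read -3.85, -4.37 and -3.99 in OA brains at 4 h and -4.56 and -4.70 in serum brains (0.56 ± 0.25, adjusted p 1.00). Kcnh4 differed by 0.49 ± 0.24 at 1 h and Kcnh1 by 0.36 ± 0.21 at 1.5 h, each with an adjusted p of 0.92. The 5 KCNQ genes, which include the M-current subunit Kcnq3 that restrains repetitive firing, lay between -0.083 and 0.096 for the mean over times.

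Silent and auxiliary subunits differed no further. Kcns3, a silent subunit, read -0.19, -0.26 and 0.05 in OA brains at 3 h and -0.55 and -0.39 in serum brains (0.34 ± 0.13, adjusted p 0.94), with no overlap. Kcng1, also silent, had a mean difference over times of -0.26 ± 0.12 with an interval of -0.51 to -0.0021 (adjusted p 1.00). Kcnab3, a cytoplasmic beta subunit, read 1.79, 1.64 and 1.78 in OA brains at 4 h and 1.34 and 1.55 in serum brains (0.29 ± 0.13, adjusted p 1.00). Kcnab2, of the same family, read -0.96, -1.89 and -1.41 in OA brains at 3 h and -0.32 and -1.24 in serum brains, ranges that overlapped (-0.64 ± 0.30, adjusted p 0.94). Kcnip3, a calcium-binding partner of Kv4 channels that also binds DNA, read 4.89 and 5.24 in OA brains at 18 h and 5.62 and 5.50 in serum brains (-0.50 ± 0.20, adjusted p 0.67). Its relative Kcnip1 read 0.34, 0.11 and 0.34 in OA brains at 24 h and 0.61 and 0.56 in serum brains (-0.32 ± 0.14, adjusted p 0.75).

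The smallest unadjusted p at 1 h, 0.00537, was for Kcnmb1, the beta subunit that vascular smooth muscle adds to its large-conductance calcium-activated channels. Kcnmb1 read -5.23, -4.78 and -4.34 in OA brains at 1 h, all 3 above background, against -6.27, -5.63 and -5.76 in serum brains, none of which was above background. The fitted difference was 1.1 ± 0.35 (adjusted p 0.83). Since the serum level is only a bound, the mean of these OA brains was at least 1.76-fold that of these serum brains. The bound sets each serum array at its lowest signal above background, or at the probe's own signal where that was higher. The value of 1.76 describes the brains measured and is not a minimum for other mice. The confidence interval of the fitted difference, not adjusted for the number of genes tested, ran from 0.36 to 1.83 log2. The probe was above background on 16 of 31 arrays, and its mean over times was 0.35 ± 0.16 from processed signals but -0.00747 with normexp background correction. Kcnma1, the pore that Kcnmb1 accompanies, read 3.04, 3.20 and 3.28 in OA brains at 1.5 h and 3.34, 3.43 and 3.32 in serum brains (-0.19 ± 0.099, adjusted p 0.92), and its further probes differed by 0.21 and -0.023 at that time. Kcnmb2, the inactivating beta subunit, read -3.45, -3.49 and -3.61 in OA brains at 24 h and -4.76 and -3.66 in serum brains (0.70 ± 0.28, adjusted p 0.75), and 1 of the serum arrays was not above background. Kcnn4, the intermediate-conductance channel of blood and immune cells, read -2.82, -4.34 and -5.01 in OA brains at 4 h and -5.89 and -4.54 in serum brains (1.16 ± 0.62, adjusted p 1.00). It was above background in only 2 of these 3 OA brains and 1 of the 2 serum brains, so the difference rests partly on values that are bounds.

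Of the 13 inward rectifiers tested, 2 were higher and 11 lower in OA mice in the mean over times, where 47.1% of all genes were higher. Their median was -0.073 beside -0.0064 over all genes, and 0 passed the test. Under 4 other background or scaling choices 11 or 12 of the 13 were lower. At single times 6 to 8 of the 13 were lower. Kcnj5, a subunit of the G protein-gated channels that acetylcholine opens in the heart, read -2.38, -3.15 and -2.88 in OA brains at 24 h and -2.30 and -2.28 in serum brains. All 3 OA brains were lower than both serum brains, by -0.51 ± 0.18 (adjusted p 0.70). Among subunits of the same class, Kcnj3 and Kcnj9 had small unadjusted p at other times, and Kcnj6 had none under 0.05. Kcnj6 differed by -0.13 at 3 h to 0.26 at 18 h. Over the 6 times Kcnj9 ran from -0.39 at 1 h to 0.25 at 1.5 h, and Kcnj5 from -0.51 at 24 h to 0.16 at 1 h. Kcnj3 read -0.90, -1.14 and -1.67 in OA brains at 3 h and -0.25 and -0.96 in serum brains (-0.63 ± 0.29, adjusted p 0.94). The OA brain at -1.67 lay on the slide of the 4 h brains, where the median of Kcnj3 was -1.84. A second Kcnj3 probe differed the opposite way at 3 h. Kcnj9 differed by -0.39 ± 0.18 at 1 h (adjusted p 0.92). Kcnj16, which pairs with another rectifier in astrocytes, read 1.38, 1.30 and 0.91 in OA brains at 1 h and 1.51, 1.44 and 1.56 in serum brains (-0.31 ± 0.14, adjusted p 0.92).

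Leak channels gave 6 of 13 higher and 7 lower for the mean over times, with a median equal to that of the 83. Kcnk16, best known from pancreatic islets, read -3.23, -3.95 and -3.59 in OA brains at 1.5 h and -4.42, -4.70 and -3.75 in serum brains (0.70 ± 0.40, adjusted p 0.92). Its highest value of all arrays, -1.97, was on OA 4 h replicate 1, the array with the most spots above background. That array also held the highest value of 8 of the 83 genes, or 9.64%, beside 8.43% of all genes, and of 4 of the 12 channel genes that were not above background on every array. Without the arrays high in Prl the 4 h OA group was that 1 array alone, with its spread assumed from the other groups. The fit then gave Kcnk16 2.15 ± 0.41 with an adjusted p of 0.020, and 220 genes in all passed, so that value describes 1 brain. Of 17 accessory and partner genes outside the naming rule (among them Dpp6, Dpp10, Abcc8, Abcc9, 4 Hcn genes and 4 cation-chloride cotransporters), 15 were tested and 0 differed between OA and serum mice in any comparison. Dpp6, which brings Kv4 channels to the membrane, passed the test of time in OA mice (adjusted p 0.038). Of all genes 7.07% passed that test, in which time and slide largely coincide.

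**Figure D2:**
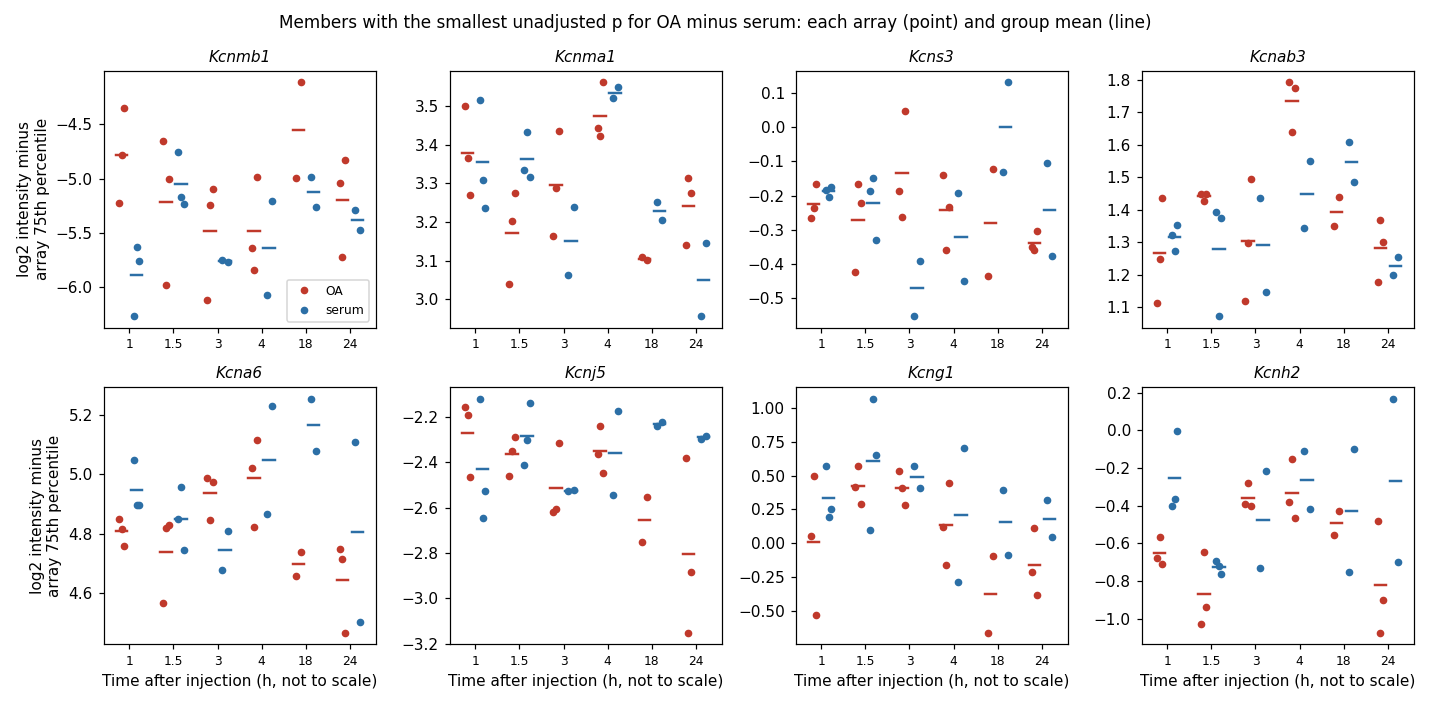
Log2 intensity minus the array's 75th percentile (y axis) at each time (x axis, not to scale) for 8 channel genes. Each was among the 4 with the smallest unadjusted p in some comparison of OA with serum, and other such genes are not drawn. Kcng1 and Kcnh2 had the smallest p in none. Points are arrays, lines group means, OA left of serum. Kcnmb1 at 1 h, Kcna6 at 18 h and Kcnj5 at 24 h show groups that do not overlap, and none of these differences passed the test.

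The difference between OA and serum mice was also compared between the first 4 times and the last 2. It passed for 0 of 83 channel genes (percent_called 0), and 6 of 83 had an unadjusted p under 0.05 beside 5.88% of all genes. The smallest p was for Kcnj5, with an early minus late difference of 0.49 ± 0.16 (adjusted p 0.77). Kcns3 gave 0.27 ± 0.11, Kcnf1, a silent subunit, 0.34 ± 0.15, and Kcng2, another, 0.65 ± 0.27, all with the same adjusted p. For Kcng2 the mean of all its probes gave -0.10, and its other probe correlated with the one used at r = -0.63 over 31 arrays. A test for any change of the OA minus serum difference across the 6 times also found 0 of 83 (percent_called 0), with 1 unadjusted p under 0.05, for Kcnc1 (0.048, adjusted 0.84), beside 5.44% of all genes. Kcns3, Kcna7 and Kcnj5 followed, each with the same adjusted p.

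**Figure D3:**
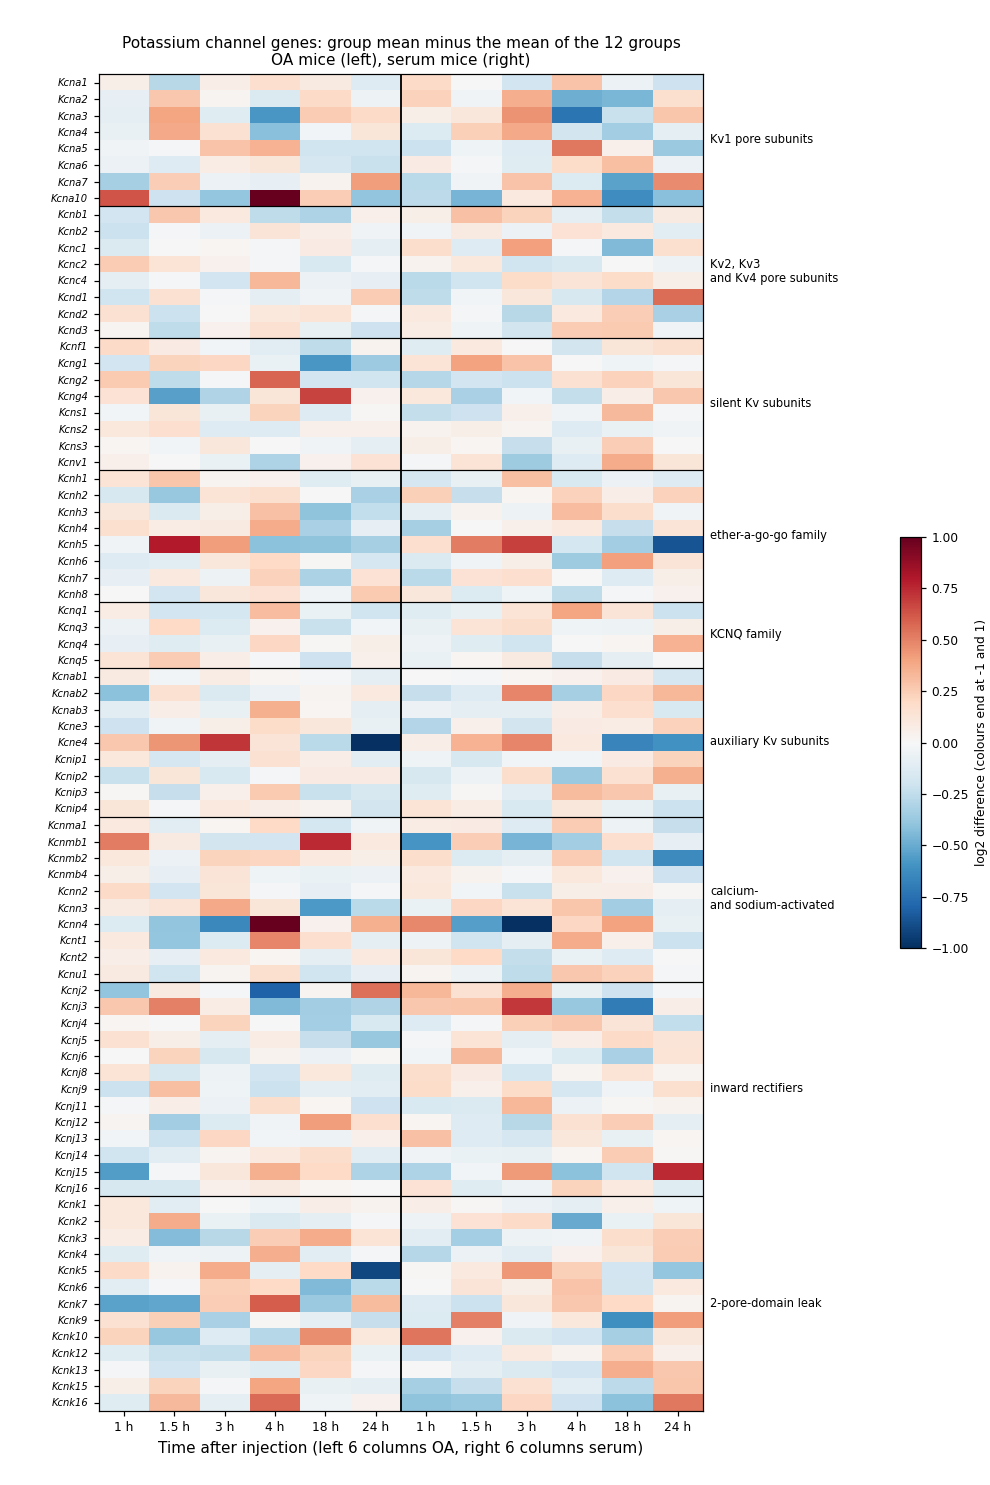
Group mean of 81 of the 83 channel genes minus that gene's mean over the 12 groups (colour, log2), with genes in rows by role and OA groups (left 6 columns) and serum groups (right 6 columns) in order of time. Kcne4 and Kcnh5 are lower at 18 h and 24 h than at 3 h on both sides, and the strongest colours elsewhere fall in genes with dim probes such as Kcna10 and Kcnn4.

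The times were then compared within each treatment. In serum mice 6 of 83 genes differed between times, or 7.23%, beside percent_called 10.4 over all genes. They were Kcne4, Kcna7, Kcnh5, Kcnj3, Kcna3 and Kcnk13, with adjusted p from 0.019 to 0.048. In OA mice 5 of 83 differed, or 6.02%, beside percent_called 7.07 over all genes. They were Kcne4, Kcnh5, Kcnt1, Kcnk6 and Kcna3, with adjusted p from 0.00071 to 0.0495. Both shares are below those of all genes. At an unadjusted p under 0.05 it was 11 of 83 in serum mice (34.6% of all genes) and 18 of 83 in OA mice (26.3%). Kcne4, Kcnh5 and Kcna3 were in both lists. The lists come from different mice but share slides, and both tests use each gene's spread within all groups, OA and serum. A small spread therefore favours a gene in both tests, and the overlap is not a repeat in separate data. The share of all genes in both lists was not counted.

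Time and slide largely coincide. With slide as a fixed term 0 channel genes passed in serum or OA mice, and with slide as a random term 0 passed in serum mice and 1, Kcne4, in OA mice. Leaving out the 6 arrays low in Gabra6 gave 1 gene (Kcna7) in serum mice and 2 (Kcne4 and Kcna7) in OA mice, and leaving out the 6 arrays high in Prl gave 0 in both. Removing any 1 array gave 0 to 8 genes in serum mice, with 0 when serum 18 h replicate 2 was left out, and 1 to 7 in OA mice.

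Kcne4 encodes a small membrane subunit that slows or silences several Kv1 and KCNQ channels in cell systems. In OA mice Kcne4 read -4.34, -3.69 and -3.42 at 1 h, -3.86, -3.90 and -3.19 at 1.5 h, -3.31, -3.49 and -3.32 at 3 h, -3.75, -4.17 and -3.96 at 4 h, -4.46 and -4.26 at 18 h, and -5.40, -4.73 and -5.16 at 24 h. In serum mice it read -4.04, -3.95 and -4.07 at 1 h, -3.75, -3.70 and -3.76 at 1.5 h, -3.54 and -3.65 at 3 h, -3.98 and -4.0 at 4 h, -4.42 and -5.08 at 18 h, and -4.52 and -4.86 at 24 h. Both series had their highest mean at 3 h, and every brain at 18 h and 24 h was lower than every brain at 3 h and 4 h. The test of time gave an adjusted p of 0.00071 in OA mice and 0.019 in serum mice. On the slide that held OA 3 h replicate 3, all 4 h brains and both serum 18 h brains, Kcne4 was -3.32 in the 3 h brain, between -4.17 and -3.75 at 4 h, and -4.42 and -5.08 at 18 h. There serum 18 h minus serum 4 h was -0.76 ± 0.27 (adjusted p 0.22), and on the slide that held the late OA brains OA 24 h minus OA 18 h was -0.74 ± 0.24 (adjusted p 1.00). The probe is dim and not above background on OA 24 h replicate 1 and serum 24 h replicate 1. With normexp background correction its adjusted p was 0.12 in OA mice and 0.38 in serum mice. On the 6 arrays high in Prl it ran from -5.40 to -3.65, and on the other 25 from -5.08 to -3.19, and the part of those arrays in the result was not tested beyond leaving them out.

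Kcnh5, a slowly activating ether-a-go-go pore of neurons, was high at 1.5 h and 3 h. In OA mice Kcnh5 read -0.79, -0.31 and -1.65 at 1 h, -0.38, -0.02 and 0.16 at 1.5 h, -0.50, -0.17 and -0.72 at 3 h, -1.31, -1.67 and -0.89 at 4 h, -1.32 and -1.23 at 18 h, and -1.44, -1.45 and -0.75 at 24 h. In serum mice it read -0.49, -0.81 and -0.82 at 1 h, -0.78, 0.03 and -0.36 at 1.5 h, 0.04 and -0.43 at 3 h, -1.43 and -0.67 at 4 h, -1.19 and -1.26 at 18 h, and -1.80 and -1.68 at 24 h. The 18 h brains lay below every 1.5 h and 3 h brain in both treatments. The adjusted p was 0.037 in OA mice and 0.034 in serum mice. By slide, its median was -0.096 on the slide that held most 3 h brains, against -1.23 and -1.38 on the slides that held the 4 h to 24 h brains except serum 24 h replicate 2. The slide of that brain had a median of -0.38.

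Kcna3 was lowest at 4 h in both treatments. It read -2.77, -2.36 and -2.91 in OA brains and -2.63 and -3.02 in serum brains at that time, against -1.48, -1.89 and -1.73 in OA brains and -2.06, -2.04 and -1.84 in serum brains at 1.5 h. Its adjusted p was 0.0495 in OA mice and 0.044 in serum mice. All 4 h brains lay on 1 slide, on which the 3 h and 18 h brains read -2.45, -2.31 and -2.32.

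The first 250 bases upstream of the annotated start of these 3 genes are shown because they are the channel genes past the test of time in both treatments (RefSeq, GRCm38.p6, read 5′ to 3′ along the gene). Capitals mark matches on either strand to CACGTG, the E-box that clock factors bind, or to TGACG, the core of the cAMP response element.
Kcne4, chr1:78816661-78816910, plus strand: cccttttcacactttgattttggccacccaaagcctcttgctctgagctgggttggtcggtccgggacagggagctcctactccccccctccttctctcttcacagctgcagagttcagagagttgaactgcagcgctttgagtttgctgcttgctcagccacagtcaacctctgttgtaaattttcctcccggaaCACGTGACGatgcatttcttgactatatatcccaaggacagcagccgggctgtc
Kcnh5, chr12:75177333-75177582, minus strand: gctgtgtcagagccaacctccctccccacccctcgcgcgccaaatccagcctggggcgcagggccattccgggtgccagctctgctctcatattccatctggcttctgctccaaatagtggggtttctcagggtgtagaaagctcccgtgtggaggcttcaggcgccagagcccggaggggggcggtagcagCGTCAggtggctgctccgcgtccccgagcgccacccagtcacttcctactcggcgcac
Kcna3, chr3:107035912-107036161, plus strand: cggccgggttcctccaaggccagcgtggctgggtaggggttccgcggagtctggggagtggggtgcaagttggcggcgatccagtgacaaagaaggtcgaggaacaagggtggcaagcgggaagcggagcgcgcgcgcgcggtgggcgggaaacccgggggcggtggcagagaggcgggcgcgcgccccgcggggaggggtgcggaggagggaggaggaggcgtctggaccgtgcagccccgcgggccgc
Kcne4 holds 1 CACGTG that starts 54 bases before the start site, and it overlaps 1 TGACG by 2 letters. Kcnh5 holds 1 TGACG on the opposite strand, 58 bases before, and Kcna3 holds neither. Of 32851 upstream windows of this length, 6.02% hold CACGTG and 17.8% hold TGACG. The full element TGACGTCA is in 1.55%, the TATAAA box in 12.4% and the full glucocorticoid response element in 0.00913%, and none of the 3 windows holds any of these. GC content is 53.2% for Kcne4, 65.6% for Kcnh5 and 74.4% for Kcna3, beside a median of 52.4%. Among clock genes, 2 of 5 (Dbp and Per1) passed the test of time in OA mice, beside 7.07% of all genes. In serum mice 0 of 5 passed, beside 10.4% of all genes, and all 5 had an unadjusted p under 0.05, beside 34.6%. Time and slide largely coincide in these tests, and a link between clock factors and Kcne4 was not tested.

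The remaining genes passed in one treatment only, and whether their course differed between treatments did not pass for any of them. Kcnj3, a pore of the G protein-gated rectifiers, was lower at 4 h and 18 h than at 1 h and 3 h in serum mice: it read -1.20, -1.03 and -0.89 at 1 h, -0.25 and -0.96 at 3 h, -1.83 and -1.54 at 4 h, and -2.16 and -1.84 at 18 h (adjusted p 0.041). In OA mice its 4 h brains read -1.45, -1.94 and -1.86 and its 18 h brains -1.60 and -1.71 (adjusted p 0.080). A second Kcnj3 probe (r = -0.15 with the first) read -1.61 and -1.44 at 3 h and -1.41 and -1.25 at 4 h in serum mice, higher at 4 h, and its OA minus serum difference at 3 h was 0.15. Kcnk13, a leak channel of microglia, read 0.48 and 0.56 at 18 h and 0.55 and 0.32 at 24 h in serum mice, above the range of -0.12 to 0.30 at the 4 earlier times (adjusted p 0.048). On the slide with both groups, serum 18 h minus serum 4 h was 0.55 ± 0.15 for Kcnk13 (adjusted p 0.091), and 0 of 83 channel genes passed that within-slide comparison beside percent_called 0.928. There Kcnh6 differed by 0.77 ± 0.28 and Kcnma1 by -0.31 ± 0.12, neither past the test.

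Kcnt1, a sodium-activated channel, was highest at 4 h in OA mice, at 3.34, 3.38 and 3.25, against 2.31, 2.40 and 2.63 at 1.5 h (adjusted p 0.040). Kcnk6, a leak channel, read -1.0 and -1.19 at 18 h and -1.11, -0.72 and -0.94 at 24 h in OA mice, against -0.51, -0.43 and -0.31 at 3 h (adjusted p 0.047). Within the slide of the late OA brains, OA 24 h minus OA 18 h passed for 0 of 83 channel genes (percent_called 0), and 2 had an unadjusted p under 0.05 beside 2.08% of all genes. These were Kcne4 and Kcnk5, a leak channel that differed by -1.11 ± 0.38 and was not above background in 2 of the 3 OA 24 h brains. Kcnh7 differed by 0.46 and Kcna7 by 0.38.

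Kcna7 also differed between slides at 1 time. Its 3 arrays on one slide, taken at 1.5 h and 24 h from both treatments, read -0.01 (OA 1.5 h), -0.17 (serum 1.5 h) and -0.32 (serum 24 h), whereas the other 1.5 h brains read -0.72 and -0.51 in OA mice and -0.97 and -0.96 in serum mice. In serum mice both 18 h brains lay below all others, and the 24 h brains, at -0.05 and -0.32, had the highest group mean (adjusted p 0.030). A second Kcna7 probe correlated with the first at r = 0.80 over 31 arrays, which share RNA and slides, and read -2.16, -2.24 and -2.37 on the same 3 arrays, all among its 4 highest values, the other being -2.34 on serum 24 h replicate 1.

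**Figure D4:**
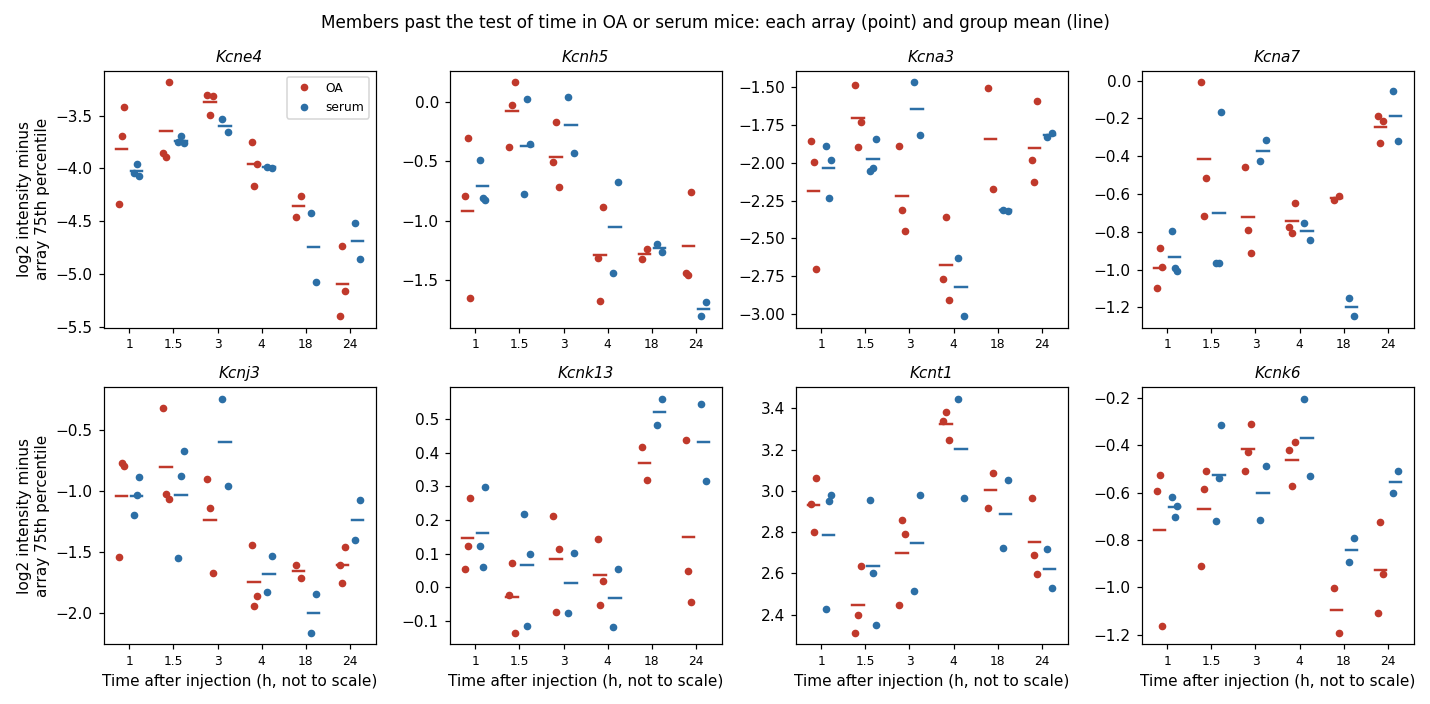
Log2 intensity minus the array's 75th percentile (y axis) at each time (x axis, not to scale) for the 8 channel genes past the test of time in OA or serum mice; points are arrays, lines group means, OA left of serum. Kcne4 falls below its 3 h level at 18 h and 24 h in both treatments, and Kcna3 dips at 4 h in both.

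The 6 arrays low in Gabra6 are compared with the other 25 as values with no test. Of the 83 channel genes 7 were lower and 7 higher on the 6 arrays by over 0.3 in the mean, or 8.43% each way, beside 7.01% lower and 4.10% higher of all genes, and the median difference was 0.028 for channel genes and 0.038 for all genes. Kcng4, a silent subunit, was the most variable of the 71 channel genes above background on every array, with an SD of 0.62 over 31 arrays beside a median of 0.26 for the 71. Kcng4 read between -2.51 and -1.95 on the 6 arrays low in Gabra6, against -2.0 to -0.46 with a median of -1.02 on the other 25. Kcnk10, a stretch- and lipid-sensitive leak channel, read between -0.09 and 0.69 on the 6 arrays, against 0.07 to 1.76 with a median of 1.02 on the rest. In the mean, the probes used differed by -1.14 to 0.43 on the 6 arrays. Further probes of the channel genes differed by -2.75 (Kcnip1, -7.04 against -4.29) to 0.48 (Kcnh4). All 6 arrays were below the others' median for Kcng4, Kcnk10, Kcna2 and Kcnc1.

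Other channel genes stood the opposite way. Kcng1 read 0.40 to 0.70 on the 6 arrays, against -0.66 to 1.07 with a median of 0.12 on the other 25. Kcnh3, an ether-a-go-go gene of forebrain neurons, read 4.58 to 5.47 against 4.17 to 5.25, and Kcnj4, a forebrain inward rectifier, 4.54 to 5.11 against 3.81 to 5.00. All 6 arrays were above the others' median for Kcng1, Kcnh3, Kcnj4, Kcnb2 and Kcnv1. These genes were picked out after their values were seen, except Kcng4 and Kcnk10, which the spread named. The 6 arrays are 2 OA and 4 serum brains, 1 from each of 6 groups, and the differences of OA from serum in these genes include how many such arrays each group held.

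**Figure D5:**
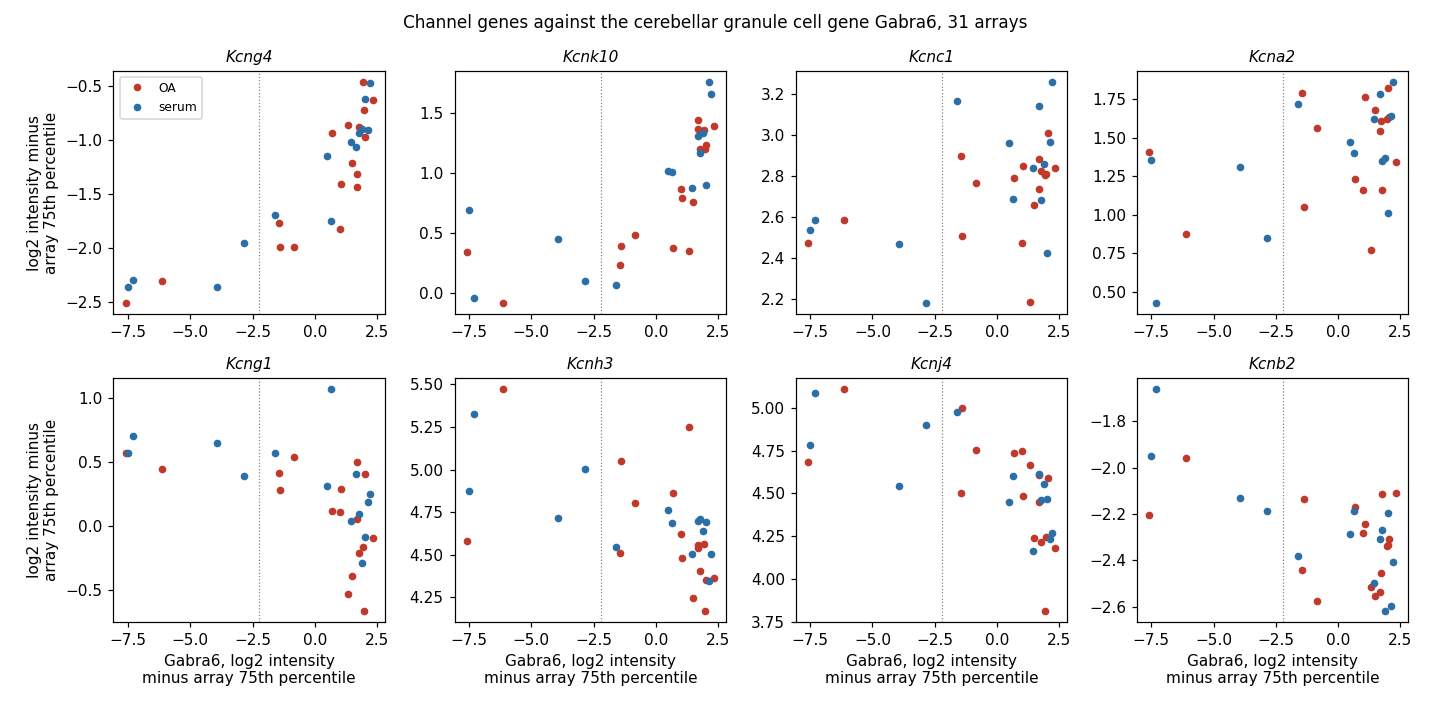
Log2 intensity minus the array's 75th percentile of 8 channel genes (y axis) against that of Gabra6 (x axis), 1 point per array, OA and serum in colour. The dotted line separates the 6 arrays low in Gabra6; on them Kcng4 lies at -1.95 or below and Kcng1 at 0.40 or above.

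The other genes of widest spread among the 71 were Kcnh5 (SD 0.57), Kcnk16 (0.53), Kcnk10 (0.52), Kcnj3 (0.48), Kcnk15 (0.45), Kcnk9 (0.45) and Kcna3 (0.41). The median SD of 0.257 for the 71 compares with 0.237 over 20508 genes above background on every array. For 25 channel genes the array carried 30 further probes that passed the filter. Their correlation with the probe used ran from -0.63 to 0.90 over 31 arrays, with a median of 0.19, and exceeded 0.5 for 10 of the 30. Kcnj13, the inward rectifier of choroid plexus, had the closest pair of probes (r = 0.90) and read 0.08 to 1.02 in OA brains and 0.01 to 1.05 in serum brains. A fold change given here therefore holds for the probe measured and not for every transcript of its gene.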

How the data were processed

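Brain RNA of 31 mice was labelled with Cy3 and hybridised to 1-colour Agilent arrays. The authors deposited scanner files whose processed intensity is background-subtracted (Agilent Feature Extraction 10.5.1.1, per the submitters' processing notes), with background flags in other columns. The deposited value table holds log2 values in which all columns share one set of values, as quantile normalization gives, with centring not stated (column medians 6.13), and was used as an alternative. Spots of a probe were averaged, log2 taken and each array's 75th percentile subtracted (306 to 813 intensity units). limma 3.58.1 in R 4.3.3 fitted 12 group means (19 residual degrees of freedom) to 25204 genes, 1 probe each, with Benjamini-Hochberg adjustment and a threshold of 0.05, which also served the tests of time. On simulated arrays with these means and spreads, the mean over 6 times recovered 74.6% of genes changed by 0.5 log2. Of those changed by 1 log2 it recovered 97%. At 18 h the shares were 11.9% and 50.7%. The simulation changed 67 genes by 0.5 log2, 67 by 1 and 66 by 2 together, which eases the adjusted threshold. The shares may therefore be too high for a change in few genes. p-values measure the spread between the arrays of a group, which holds differences between mice and, where a group spanned slides, between slides. Named genes were every member past the test or, where under 4 passed, the 4 with the smallest p, plus the 8 of largest spread. The members, lists and alternatives were chosen with earlier results of these data known. Results on some genes are not reported here. Alternatives covered background correction, scaling, filter, probe choice, slide, replicate number and single arrays. Promoter sequence came from a RefSeq table with promoters of 65 of the 90 genes; the 250 bases before each start were read.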

Additional observations from a re-analysis of the deposited data

How the results depend on the processing

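The absence of a called channel gene between OA and serum mice held at each time, for the mean over times and for both tests of change between times under every alternative, except that 1 gene (Kcnk16) passed at 4 h without the arrays high in Prl, where 1 OA array was left, its spread was assumed from the other groups and the value describes that array. The count in serum mice for time, 6 as reported, was 2 with normexp, 2 with quantile normalization, 1 with median scaling, 3 in the deposited value table, 1 without a filter, 0 with slide as a fixed or random block, 2 with only the groups compared, 1 without the arrays low in Gabra6 and 0 without those high in Prl. The count in OA mice, 5 as reported, was 2 with median scaling, 1 without a filter, 0 with slide fixed, 1 with slide random, 3 with only the groups compared, 2 without the arrays low in Gabra6 and 0 without those high in Prl. The cause was not tested, beyond fewer samples in the last 3 settings. Replicate numbers did not pair the mice (14 pairs, r from -0.62 to 0.39, 3 over 0.1), and a replicate block gave 4 in serum and 4 in OA mice and 0 for OA against serum. Leaving out 1 array at a time gave 0 to 8 genes in serum mice, 1 to 7 in OA mice and 0 to 1 for serum 18 h minus serum 4 h (Kcnn3, -1.17, adjusted p 0.039, without serum 4 h replicate 1), and 0 in the other 10 comparisons. The serum count fell to 3 or fewer without serum 1 h replicates 2 or 3, serum 1.5 h replicate 2, either serum 3 h array, serum 4 h replicate 2, either serum 18 h or serum 24 h array, or OA 24 h replicate 2. The OA count fell to 3 or fewer without any serum 1 h array, serum 1.5 h replicate 2, either serum 18 h array, any OA 1.5 h, 4 h, 18 h or 24 h array, or OA 3 h replicates 1 or 2. Kcne4 passed in 31 of 31 such fits in OA mice and 30 of 31 in serum mice, Kcnh5 in 21 and 25, and Kcna3 in 7 and 14. Signs turned for Kcnmb1 in the mean over times (-0.00747, normexp), Kcng2 for early minus late (-0.10, mean of all probes), and Kcna7 (-0.59) and Kcnc1 (-0.21) at 18 h with slide fixed. Median scaling shifted the median of all genes by 0.105 at 3 h, -0.196 at 4 h, -0.136 at 18 h and 0.116 at 24 h, and every other scaling by under 0.1. Arrays give no count of molecules, and 12 of the 83 genes lie near background on some arrays.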
